A study of Mus musculus with 7 samples.

Results

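The genes of cholesterol synthesis and sterol transport were examined as a list of 33, chosen by their place in the pathway: the enzymes that build cholesterol, the proteins that control the SREBP transcription factors, and the proteins that export, esterify, take up or move sterols. Of the 33 genes, 30 had a probe set annotated with their symbol among the 19938 genes named by the 35556 probe sets of the array, and the brightest probe set stood for each gene. Idi1 and Fdft1 had a second probe set. Acat2, Soat1 and Soat2 were not analysed here. The 30 measured genes comprised 16 enzymes of synthesis, 4 genes of SREBP control, 4 exporters, the plasma esterification enzyme Lcat and 5 genes of uptake and intracellular movement.

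The samples were left-lobe liver pieces from male littermates on the C57BL/6 background. The 3 Trpm6-deficient mice (Trpm6 Δ17/Δ17;Sox2-Cre, the KO of the study) had lost exon 17 of both alleles of Trpm6, a channel and kinase needed for magnesium balance, and Trpm6-deficient 1, 2 and 3 were 13, 12 and 13 weeks old. The 4 control mice (Trpm6 fl/+) carried 1 floxed allele with the exon still in place and no Cre, so Cre was present in the Trpm6-deficient group only. Controls 1 and 2 were 12 weeks old, and controls 3 and 4 were 13 weeks old. Sox2-Cre acts in the epiblast, from which the whole body of the mouse derives, so events that began in the liver and events that began in other organs cannot be told apart here. Each mouse gave 1 array, and values are log2 intensities, on which a difference of 1 is a doubling.

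The liver makes cholesterol from acetyl-CoA through mevalonate, squalene and lanosterol. When sterols are scarce in the membrane of the endoplasmic reticulum, SCAP escorts SREBP-2 (the product of Srebf2) to the Golgi, where it is cleaved, and the released factor switches on the genes of synthesis together. When sterols are plentiful, INSIG proteins hold SCAP back, while oxysterols act through the LXR receptors to switch on exporters such as ABCA1, ABCG1, ABCG5 and ABCG8, which send cholesterol to high-density lipoprotein and bile.

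Trpm6 itself read 5.50, 5.37 and 5.50 in the Trpm6-deficient livers and 5.53, 5.51, 5.50 and 5.50 in the control livers, near the lower quartile of the arrays (5.05 to 5.11). The log2 change was -0.05 (SE 0.05, limma adjusted p = 0.882), and since the exons read by this probe set are not known here, the value does not check the genotype. Of the 10 hepatocyte markers listed, 8 were measured, and their mean lay at 13.77 to 13.81 in Trpm6-deficient livers and 13.66 to 13.80 in control livers, far above the upper quartile of the arrays (8.32 to 8.39). Across all probe sets, Trpm6-deficient 1 correlated better with control 1 (r = 0.991) than with either of the other Trpm6-deficient livers (0.987 with each), which correlated at 0.990 with each other. The mean of 10 Kupffer cell markers was 8.80, 8.91 and 8.99 in Trpm6-deficient 1, 2 and 3, against 8.52 in control 1 and 9.27 to 9.48 in controls 2 to 4, so that control 1 lay apart from the other control livers and below the Trpm6-deficient ones. Results that rest on these livers are therefore given with and without them.

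No gene of the list passed the threshold of the study, a limma p adjusted over all probe sets of 0.1 or less, which 0.129% of all probe sets passed. At an unadjusted limma p up to 0.05, 5 of the 30 genes were higher in Trpm6-deficient livers and 0 were lower, where 3.85% of all probe sets were higher and 3.03% were lower. The 5 genes were Pmvk and Ebp of synthesis, Srebf2, and the exporters Abcg5 and Abcg8. Of the 30 log2 changes, 23 were positive and 7 negative, with a median of 0.13. Of all probe sets 49.6% had a positive change, and their median was 0. The 3 Trpm6-deficient livers lay wholly above the 4 control livers for 2 of the 30 genes, Ebp and Abcg8, as they did for 2.94% of all probe sets.

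**Figure D1:**
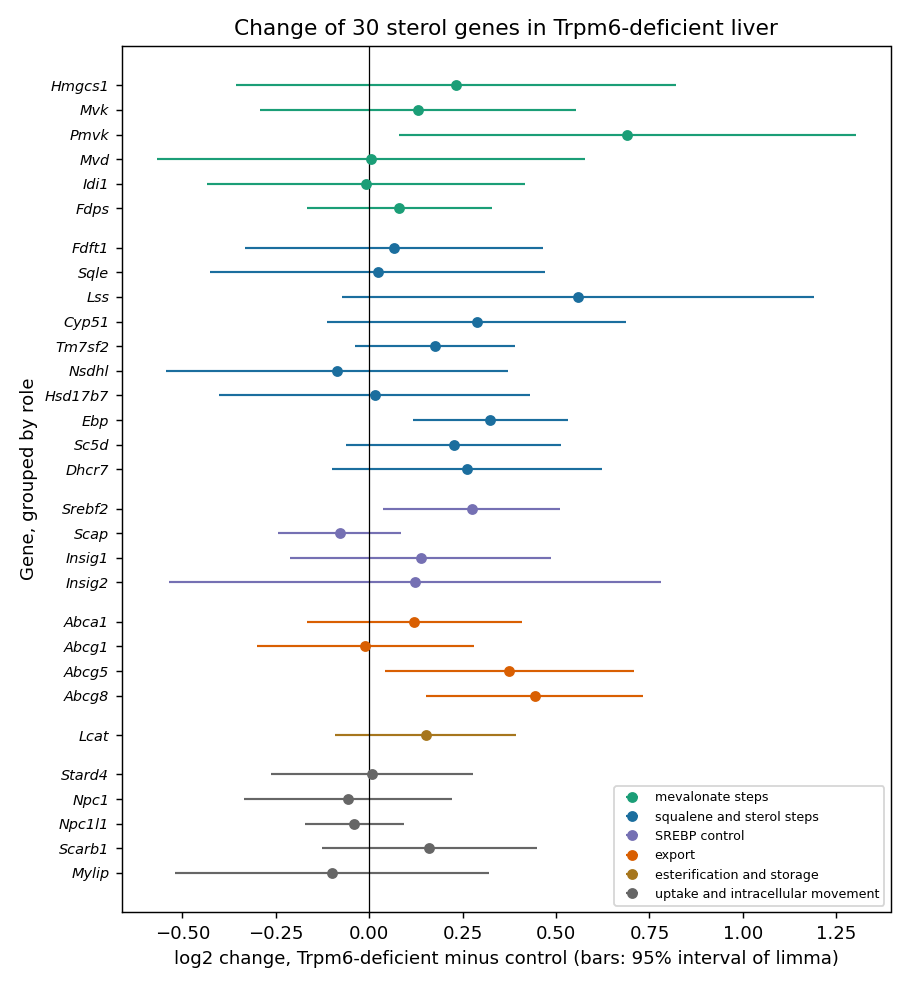
Log2 change of the 30 measured genes, Trpm6-deficient minus control, with the 95% confidence interval from limma, grouped by role. Pmvk has the largest change at 0.69, and the intervals of Pmvk, Ebp, Srebf2, Abcg5 and Abcg8 lie above 0.

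For the enzymes of synthesis, the median log2 change over 16 genes was 0.15, and 14 of the 16 changes were positive. This median depended on single Trpm6-deficient livers, being 0.27 without Trpm6-deficient 1, 0.06 without Trpm6-deficient 2 and 0.10 without Trpm6-deficient 3, and it lay between 0.11 and 0.165 with any 1 control liver left out. The changes ran between -0.09 (Nsdhl) and 0.69 (Pmvk). The Trpm6-deficient livers did not move together. Averaged over the 16 genes, the difference from the control mean was -0.12 in Trpm6-deficient 1, 0.37 in Trpm6-deficient 2 and 0.31 in Trpm6-deficient 3, against 0.14, 0.03, -0.12 and -0.06 in controls 1 to 4. Trpm6-deficient 1 therefore lay at the level of the lowest control liver, while Trpm6-deficient 2 and 3 lay above every control liver.

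**Figure D2:**
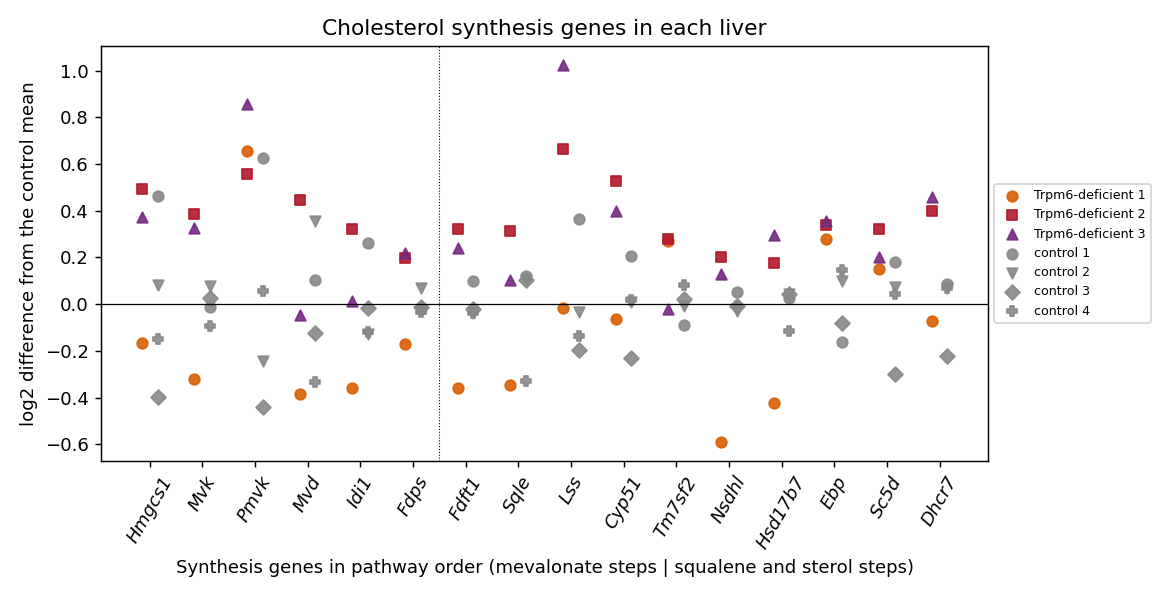
Difference of each liver from the control mean (log2) for the 16 measured enzymes of synthesis in pathway order, with the Trpm6-deficient livers in colour and the control livers in grey. The highest point belongs to Trpm6-deficient 2 or 3 for 16 of the 16 genes, and the lowest belongs to Trpm6-deficient 1 for 8 of them.

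The same split was seen gene by gene, in measures that were chosen after the values had been seen and carry no test. Trpm6-deficient 1 was the lowest of the 7 livers for 8 of 16 enzymes (50% of them, and 14.2% of all probe sets), and it was below both other Trpm6-deficient livers for 14 of 16 (31.6% of all probe sets). The highest liver was Trpm6-deficient 2 or 3 for 16 of 16 (29.9% of all probe sets), and both of these livers exceeded every control liver for 10 of 16 (7.98% of all probe sets). Among 9 further pathway genes, given below, the highest liver was Trpm6-deficient 2 or 3 for 1. Both exceeded every control liver for 0 of them. Trpm6-deficient 1 was the lowest of the 7 livers for 3 of these 9, Msmo1 among them, and below both other Trpm6-deficient livers for 3. Msmo1, a synthesis enzyme among these 9, read 12.01, 12.44 and 12.26 in the Trpm6-deficient livers. In controls 1 to 4 it read 12.52, 12.17, 12.44 and 12.05, so control 1 was highest. The median SD among the Trpm6-deficient livers was 0.34 over the enzymes, against 0.16 among the control livers, whereas over all probe sets the medians of the groups were 0.127 and 0.128.

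The first steps lead from acetyl-CoA to farnesyl diphosphate. Hmgcs1, the HMG-CoA synthase that opens the pathway, is a known SREBP-2 target. It read 12.16, 12.82 and 12.70 in the Trpm6-deficient livers and 12.79, 12.41, 11.93 and 12.18 in the control livers, and the groups overlapped, with control 1 close to the highest Trpm6-deficient liver. The log2 change was 0.23 (SE 0.24, limma adjusted p = 0.897).

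The promoter of Hmgcs1 is shown because it was the only one, among the 23 measured genes with a window, that held the core letters of a sterol regulatory element, TCACNCCAC, on either strand within 250 bases before and 50 bases after the start. The window is chr13:119690101-119690400 of GRCm38.p6, plus strand, with sequences from RefSeq, and capitals mark the sterol element and the CCAAT boxes, and a CCAAT box reads ATTGG where it lies on the opposite strand. The sterol element begins 137 bases before the start.
Hmgcs1 promoter: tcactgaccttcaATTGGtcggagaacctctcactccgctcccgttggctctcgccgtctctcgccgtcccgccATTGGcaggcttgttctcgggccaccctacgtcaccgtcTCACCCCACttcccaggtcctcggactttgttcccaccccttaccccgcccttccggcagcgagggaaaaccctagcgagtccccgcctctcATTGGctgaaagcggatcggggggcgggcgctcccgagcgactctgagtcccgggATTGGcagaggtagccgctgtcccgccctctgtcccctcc
The sterol element was found in 1.24% of all 32851 promoter windows of that length, and CCAAT, a box bound by the factor NF-Y that works beside SREBP at many sterol genes, in 37.4%. Promoter windows were available for 23 of the 30 genes, and 21 of the 23 held CCAAT in at least 1 window, as did 41.1% of the 27025 genes with a window. The motif letters are a description of the sequence and not evidence of binding.

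Of the other mevalonate enzymes, Pmvk, which adds the second phosphate to mevalonate, read 10.01, 9.91 and 10.21 in the Trpm6-deficient livers and 9.98, 9.11, 8.91 and 9.41 in the control livers. Control 1 lay within the Trpm6-deficient range, and the other control livers lay below it. Pmvk averaged 10.04 ± 0.15 in Trpm6-deficient livers (SD, n = 3) and 9.35 ± 0.47 in control livers (SD, n = 4). The log2 change was 0.69 (SE 0.25, limma adjusted p = 0.676). The other mevalonate enzymes had smaller differences between the group means. Mvk, the mevalonate kinase, had a log2 change of 0.13, Mvd, the decarboxylase, 0.005, and Fdps, which makes farnesyl diphosphate, 0.08. Idi1, the isopentenyl diphosphate isomerase, had a log2 change of -0.01 with either of its probe sets. Within the Trpm6-deficient group Mvk read 9.57 in liver 1, against 10.28 and 10.22 in livers 2 and 3, and the control livers lay between at 9.80 to 9.97.

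Among the 10 enzymes that carry farnesyl diphosphate through squalene to cholesterol, the median log2 change was 0.20, and 9 changes were positive. Ebp, the sterol isomerase of the late pathway, read 11.81, 11.87 and 11.89 in the Trpm6-deficient livers and 11.37, 11.63, 11.45 and 11.68 in the control livers. The groups did not overlap, and Ebp was one of 4 enzymes of synthesis, with Pmvk, Tm7sf2 and Sc5d, in which Trpm6-deficient 1 lay no further than 0.14 from the mean of the other Trpm6-deficient livers. The means were 11.86 ± 0.04 in Trpm6-deficient livers and 11.53 ± 0.15 in control livers (SD, n = 3 and n = 4), a log2 change of 0.32 or 1.25-fold (SE 0.09, 95% interval 0.12 to 0.53, limma adjusted p = 0.504).

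Lss, the lanosterol synthase that closes the sterol rings, had the largest gap between Trpm6-deficient 1 and the other mutants among the enzymes. It read 10.46, 11.14 and 11.50 in the Trpm6-deficient livers and 10.84, 10.44, 10.28 and 10.34 in the control livers. Trpm6-deficient 2 and 3 exceeded every control liver, and Trpm6-deficient 1 lay 0.86 below their mean, inside the control range. The log2 change was 0.56 (SE 0.26, limma adjusted p = 0.783).

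The promoters of Ebp and Lss are shown for comparison with that of Hmgcs1, since Ebp was the enzyme whose groups did not overlap and Lss the one with that gap. Both held CCAAT boxes and neither held the sterol element. The windows are chrX:8193463-8193762 on the minus strand for Ebp and chr10:76531355-76531654 on the plus strand for Lss (GRCm38.p6), and capitals mark CCAAT boxes on the opposite strand, which begin 170 and 55 bases before the start of Ebp and 62 bases before that of Lss.
Ebp promoter: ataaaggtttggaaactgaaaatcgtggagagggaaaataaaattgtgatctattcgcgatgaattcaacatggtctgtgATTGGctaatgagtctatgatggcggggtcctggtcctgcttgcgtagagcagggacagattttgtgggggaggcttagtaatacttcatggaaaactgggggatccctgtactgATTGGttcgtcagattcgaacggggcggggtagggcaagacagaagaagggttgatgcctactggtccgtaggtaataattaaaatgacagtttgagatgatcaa
Lss promoter: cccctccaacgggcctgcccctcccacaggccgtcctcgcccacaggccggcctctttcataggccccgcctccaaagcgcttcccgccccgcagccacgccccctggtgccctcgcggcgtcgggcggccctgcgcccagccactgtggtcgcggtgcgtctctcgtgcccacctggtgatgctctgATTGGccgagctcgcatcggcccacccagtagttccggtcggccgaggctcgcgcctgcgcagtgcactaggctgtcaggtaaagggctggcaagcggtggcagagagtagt
No match to these letters says only that they are not in this window.

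Sqle, the squalene epoxidase and a rate-limiting step of the pathway, read 11.02, 11.68 and 11.47 in the Trpm6-deficient livers and 11.49, 11.47, 11.47 and 11.04 in the control livers. Trpm6-deficient 2 was the highest liver, while Trpm6-deficient 1 and control 4 were the lowest, and the log2 change was 0.02 (SE 0.19, limma adjusted p = 0.993). Fdft1, the squalene synthase, had a log2 change of 0.07, and 0.11 with its second probe set. Cyp51, the lanosterol demethylase, and Dhcr7, which performs the last reduction to cholesterol, had log2 changes of 0.29 and 0.26, with adjusted p of 0.834 and 0.833. Their highest values were in Trpm6-deficient 2 for Cyp51 and Trpm6-deficient 3 for Dhcr7. Sc5d, the lathosterol oxidase, had a change of 0.23 and Tm7sf2, a sterol reductase, 0.18. Nsdhl and Hsd17b7, which act together in removing the methyl groups of lanosterol, had changes of -0.09 and 0.02, with Trpm6-deficient 1 at the bottom of the 7 livers in both.

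**Figure D3:**
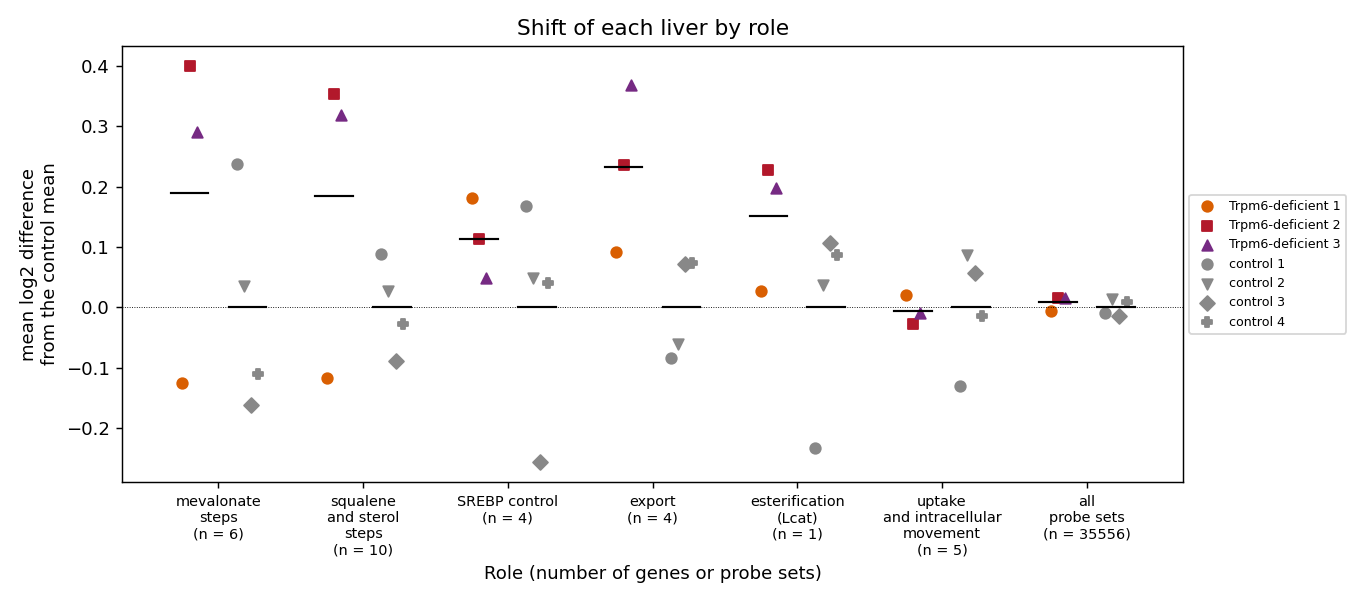
Mean log2 difference of each liver from the control mean, for the genes of each role and for all probe sets. Black lines mark group means, with the Trpm6-deficient livers left of the control livers in each role. In both synthesis classes Trpm6-deficient 1 lies below 0 and Trpm6-deficient 2 and 3 lie above every control liver, while in export the 3 Trpm6-deficient livers lie above the 4 control livers.

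Among the 4 genes of SREBP control the median log2 change was 0.13. Srebf2, which encodes SREBP-2, read 9.80, 10.01 and 10.19 in the Trpm6-deficient livers and 9.81, 9.68, 9.65 and 9.76 in the control livers. Trpm6-deficient 1 was level with control 1 and the other Trpm6-deficient livers were above all control livers. The means were 10.00 ± 0.20 in Trpm6-deficient livers (SD, n = 3) and 9.73 ± 0.07 in control livers (SD, n = 4), a log2 change of 0.28 or 1.21-fold (SE 0.10, limma adjusted p = 0.669).

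Insig1, the sterol-dependent anchor of SCAP and itself an SREBP target, read 12.92, 12.81 and 12.40 in the Trpm6-deficient livers and 12.74, 12.66, 12.46 and 12.43 in the control livers. Trpm6-deficient 1 was the highest of the 7 livers and Trpm6-deficient 3 the lowest, which is the reverse of the order of Trpm6-deficient livers in Srebf2. The log2 change was 0.14 (SE 0.15, limma adjusted p = 0.897). Insig2, the second anchor, had a log2 change of 0.12, with control 3 lowest at 11.14, and Scap had a change of -0.08. Averaged over the 4 genes, the difference from the control mean was 0.18, 0.11 and 0.05 in Trpm6-deficient 1, 2 and 3, and it lay between -0.26 and 0.17 in control livers.

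The 4 exporters had a median log2 change of 0.25. Averaged over them, the difference from the control mean was 0.09, 0.24 and 0.37 in Trpm6-deficient 1, 2 and 3, against -0.08, -0.06, 0.07 and 0.07 in controls 1 to 4. Abcg5 and Abcg8 together form the transporter that moves cholesterol from hepatocytes into bile. Abcg8 read 10.20, 10.32 and 10.56 in the Trpm6-deficient livers and 9.81, 9.76, 9.99 and 10.11 in the control livers, with no overlap. Its means were 10.36 ± 0.18 in Trpm6-deficient livers (SD, n = 3) and 9.92 ± 0.16 in control livers (SD, n = 4). The log2 change was 0.44 or 1.36-fold (SE 0.12, 95% interval 0.15 to 0.73, limma adjusted p = 0.523).

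Abcg5 read 10.57, 10.78 and 11.02 in the Trpm6-deficient livers and 10.26, 10.26, 10.57 and 10.57 in the control livers. Trpm6-deficient 1 had the same value as controls 3 and 4, and the other Trpm6-deficient livers were higher than every control liver. The means were 10.79 ± 0.23 in Trpm6-deficient livers (SD, n = 3) and 10.41 ± 0.18 in control livers (SD, n = 4), and the log2 change was 0.38 or 1.30-fold (SE 0.14, limma adjusted p = 0.678). In both genes Trpm6-deficient 1 was the lowest and Trpm6-deficient 3 the highest of the Trpm6-deficient livers.

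The promoter of Abcg8 is shown because it also holds most of that of Abcg5. The genes lie head to head on chromosome 17, with start sites 110 bases apart, and their windows share 209 bases. The Abcg8 window is chr17:84682871-84683170 of GRCm38.p6, plus strand, and capitals mark CCAAT boxes, which begin 175 and 114 bases before the start.
Abcg8 promoter: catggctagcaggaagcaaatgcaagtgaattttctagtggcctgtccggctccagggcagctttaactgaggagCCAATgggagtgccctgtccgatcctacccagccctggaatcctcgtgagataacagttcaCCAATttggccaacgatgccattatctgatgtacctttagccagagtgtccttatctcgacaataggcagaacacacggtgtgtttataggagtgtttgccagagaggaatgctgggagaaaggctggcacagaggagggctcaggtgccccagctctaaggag
The letters GGTCA, given 2 times with 4 bases between, were searched on either strand. They were in none of the 23 genes with a window and in 0.0457% of all windows. The repeat bound by LXR with its partner RXR has 4 bases between units of AGGTCA. Its GGTCA letters therefore lie more than 4 bases apart, so this search cannot decide whether that repeat is present.

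**Figure D4:**
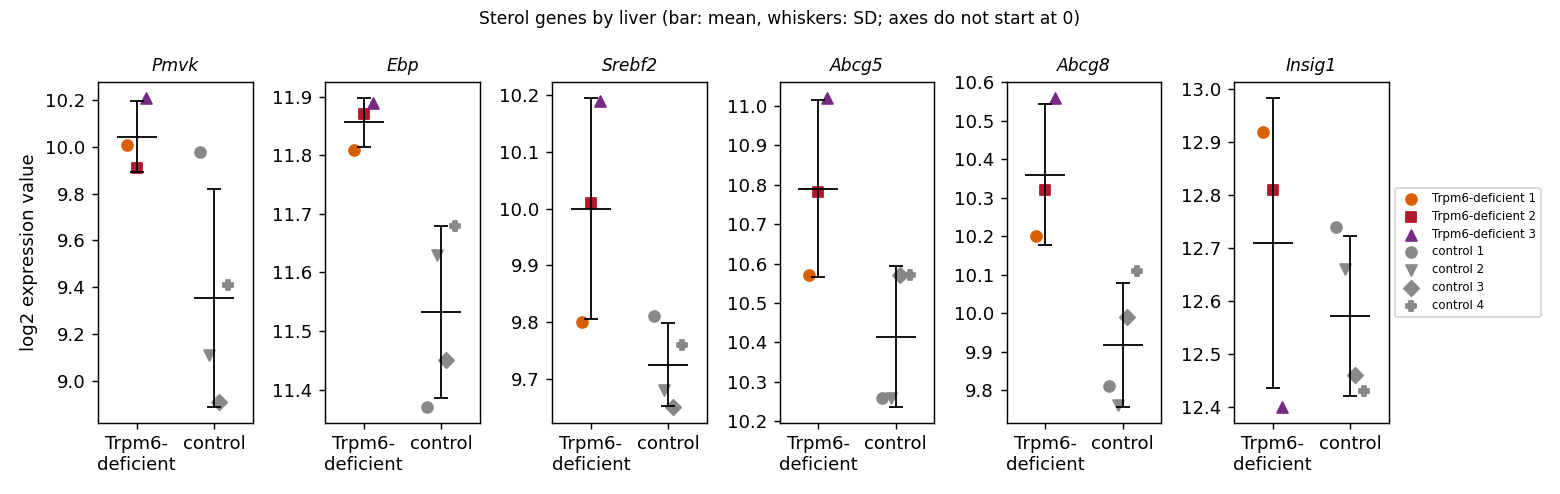
Log2 expression value of Pmvk, Ebp, Srebf2, Abcg5, Abcg8 and Insig1 in each liver, with the Trpm6-deficient livers left of the control livers, bars at the means and whiskers of 1 SD (n = 3 and n = 4); the axes do not start at 0. Ebp and Abcg8 show no overlap between the groups, whereas in Insig1 the Trpm6-deficient livers include both the highest value (12.92) and the lowest (12.40).

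Abca1, which loads cholesterol onto apolipoprotein A-I, read 10.69, 10.94 and 10.99 in the Trpm6-deficient livers and 10.94, 10.83, 10.53 and 10.71 in the control livers. The groups overlapped over most of their range, and the log2 change was 0.12 (SE 0.12, limma adjusted p = 0.892). Abcg1, a transporter to high-density lipoprotein, read 7.92 in each of the 3 Trpm6-deficient livers and 7.67 to 8.21 in the control livers, with a log2 change of -0.01. Lcat, the liver-secreted enzyme that esterifies cholesterol in plasma, had a log2 change of 0.15 (SE 0.10, adjusted p = 0.851). Over the 5 measured genes of export and storage, the 4 exporters and Lcat, the median log2 change was 0.15. It was 0.21, 0.11 and 0.13 without Trpm6-deficient 1, 2 and 3. Soat1 and Soat2 were not analysed, so this median holds no enzyme of storage within cells. Trpm6-deficient 1 was the lowest of 7 livers in 0 of the 5 genes, but it was below both other Trpm6-deficient livers in 4 (31.6% of all probe sets). The highest liver was Trpm6-deficient 2 or 3 in 4 of the 5 (29.9% of all probe sets). Both of these livers exceeded every control liver in 3 of the 5 (7.98% of all probe sets), so the split was not particular to the enzymes of synthesis.

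The 5 genes of uptake and intracellular movement had a median log2 change of -0.04, and none reached an unadjusted limma p of 0.05. Scarb1, the receptor for high-density lipoprotein, had a log2 change of 0.16, with the highest value in Trpm6-deficient 3 at 12.02. Stard4, a soluble sterol carrier, had a change of 0.01, and Npc1, which releases cholesterol from lysosomes, had -0.06. Npc1l1, the sterol uptake protein, had a change of -0.04 and read 6.24 to 6.41 in Trpm6-deficient livers and 6.33 to 6.35 in control livers, close to the array medians of 6.43 to 6.48. Mylip, a ubiquitin ligase that sends the LDL receptor for degradation, had a change of -0.10.

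Among 15 further genes of the pathway, listed by their role but with earlier results of these data known, 9 were measured. Their median log2 change was -0.05, 0 passed the adjusted threshold, and at an unadjusted limma p up to 0.05 1 was higher and 1 was lower. Mbtps1, the Golgi protease that makes the first cut in SREBP, read 9.59, 9.71 and 9.47 in the Trpm6-deficient livers and 9.81, 10.10, 9.96 and 9.95 in the control livers. The groups did not overlap, as for 2.38% of all probe sets in this direction. The log2 change of Mbtps1 was -0.365 (SE 0.09, limma adjusted p = 0.429). Pltp, the plasma phospholipid transfer protein, read 11.33, 11.00 and 10.86 in the Trpm6-deficient livers and 10.73, 10.79, 10.86 and 10.79 in the control livers. Trpm6-deficient 1 was the highest liver, and the log2 change was 0.27 (SE 0.11, limma adjusted p = 0.726).

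Without Trpm6-deficient 1, 12 of the 30 genes had an unadjusted limma p up to 0.05, and all 12 were higher in Trpm6-deficient livers, against 4.54% of all probe sets higher in that fit. Of the 12 genes, 9 were enzymes of synthesis (Mvk, Fdps, Fdft1, Lss, Cyp51, Nsdhl, Hsd17b7, Ebp and Dhcr7), and the log2 change was positive for 16 of 16 enzymes, against 14 with all livers, 10 without Trpm6-deficient 2, 11 without Trpm6-deficient 3, and 11 to 15 with 1 control liver left out. None had an adjusted p of 0.1 or less, which 0.194% of all probe sets had. Lss reached 0.845 (limma adjusted p = 0.368), Mvk 0.36 (limma adjusted p = 0.266) and Srebf2 0.375 (limma adjusted p = 0.326) in this fit. In each of the 12 genes Trpm6-deficient 1 was the lowest of the Trpm6-deficient livers, and in 5 of them (Mvk, Fdps, Fdft1, Nsdhl and Hsd17b7) the lowest of the 7 livers, so the counts describe the other livers and are no test of the group.

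Without both Trpm6-deficient 1 and control 1, 15 genes were higher and 1, Mylip, was lower at an unadjusted limma p up to 0.05, with 4.11% of all probe sets higher. In either direction 7.54% of all probe sets reached that p. These 2 livers were chosen after the values had been seen. Over the enzymes of synthesis Trpm6-deficient 1 was the lowest of its group (-0.12) and control 1 the highest of the controls (0.14). Leaving both out therefore widens the difference, and the counts are no test of the group. Without control 1 alone there were 5 higher and 1 lower, and Pmvk had a log2 change of 0.90. Leaving out Trpm6-deficient 2 left 2 genes, Ebp and Abcg8, and leaving out Trpm6-deficient 3 left 4, Tm7sf2, Ebp, Insig1 and Abcg8. Without 1 of controls 2, 3 and 4 the counts were 2, 3 and 3. Ebp and Abcg8 kept an unadjusted limma p up to 0.05 in each of these fits, and no gene reached an adjusted p of 0.1 in any of them.

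**Figure D5:**
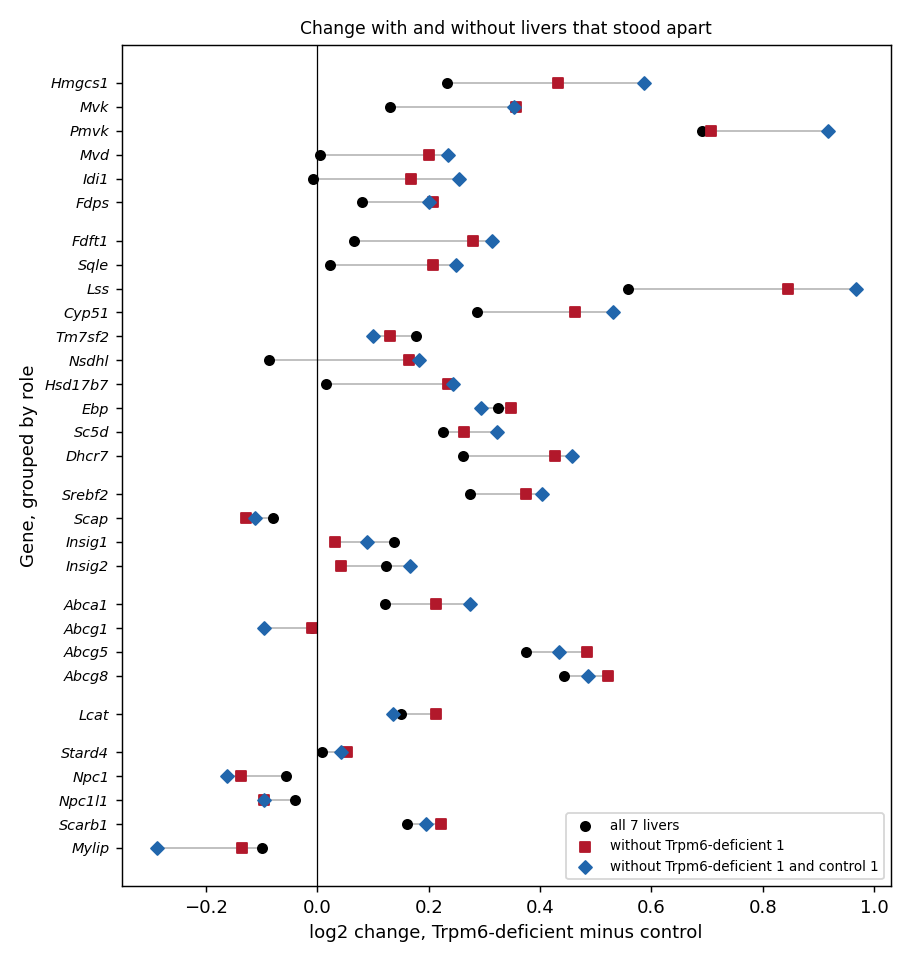
Log2 change of the 30 genes, Trpm6-deficient minus control, with all 7 livers (black), without Trpm6-deficient 1 (red) and without both Trpm6-deficient 1 and control 1 (blue), grouped by role. The red points lie to the right of the black ones for most enzymes of synthesis, as for Lss at 0.845 against 0.56, and to the left for Tm7sf2 at 0.13 against 0.18.

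Age was not balanced between the groups. At 12 weeks, with 1 Trpm6-deficient liver and 2 control livers, the median log2 change was 0.27 for synthesis and 0.325 for export and storage. At 13 weeks, with 2 livers in each group, the medians were 0.06 and 0.22. Abcg8 had a log2 change of 0.535 at 12 weeks and 0.33 at 13 weeks, and Ebp had 0.37 and 0.285. Trpm6-deficient 1 was a 13-week liver and Trpm6-deficient 2 the 12-week liver, so age and the split among the Trpm6-deficient livers cannot be separated fully, although Trpm6-deficient 3 was also 13 weeks old. With 1 Trpm6-deficient liver at 12 weeks, an interaction of genotype with age cannot be judged, and no conclusion is drawn on it.

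Cell type markers also varied between livers, and in whole tissue fewer cells of a type and less RNA per cell cannot be told apart. Over 8 sinusoidal endothelial markers the mean was 9.27 to 9.68 in Trpm6-deficient livers and 9.04 to 10.03 in control livers, with control 1 lowest and controls 2 to 4 at 9.75 to 10.03. Kupffer cell markers were at 8.80 to 8.99 in Trpm6-deficient livers and 8.52 to 9.48 in control livers. Over 8 stellate cell markers the mean was 9.40 to 9.54 in Trpm6-deficient livers and 9.15 to 9.45 in control livers. At an unadjusted limma p up to 0.05, 3 of these 8 were higher, where 3.85% of all probe sets were higher. So were 1 of the hepatocyte and 1 of the cholangiocyte markers, and 0 of the Kupffer cell, sinusoidal endothelial and lymphocyte markers. In each list 0 markers were lower at that p. Of the 6 cholangiocyte markers 5 were measured, with a mean of 6.456 to 6.592 in Trpm6-deficient livers and 6.398 to 6.460 in control livers, and 5 of 6 lymphocyte markers gave 5.45 to 5.58 in Trpm6-deficient livers and 5.30 to 5.84 in control livers. None of the marker genes passed the adjusted threshold, and the part of these markers in the results on sterol genes was not tested.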

How the data were processed

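Total RNA of 7 livers, 3 Trpm6-deficient and 4 control, was hybridised to Affymetrix Mouse Gene 1.0 ST arrays, 1 per mouse. The deposited values are log2 intensities that the authors made by robust multi-array averaging (RMA) in Expression Console 1.4.0 per the labels. RMA corrects background, quantile-normalizes the arrays and summarises probes, so levels are comparable for 1 probe set across livers, not between probe sets. No depth applies to arrays; the number of livers limits precision. Of 35556 probe sets, 21789 had 1 gene symbol in the platform annotation, 1621 several and 12146 none, and only those with 1 symbol were named.

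Here the values were used as deposited. A two-group limma fit (version 3.58.1, R 4.3.3) without covariates was run on every probe set, with Benjamini-Hochberg adjustment over all of them and the study's threshold of 0.1. The brightest probe set by mean stood for each gene. Limma p-values set the difference between the groups against the spread of livers within the groups, moderated over all probe sets. Values are given for each liver for genes at an unadjusted limma p up to 0.05 and for Srebf2, Insig1, Hmgcs1, Sqle, Abca1, Abcg5 and Abcg8; the other genes are given by change and range, and values of Lss, Mvk and others were added after they were seen. Promoter windows came from RefSeq (GRCm38.p6). The genes and lists were chosen with earlier results of these data known. The fit was tested on simulated data. Alternatives were age as a covariate, the replicate number as a block, centred or re-quantiled arrays, and a filter on dim probe sets. Others were the mean of a gene's probe sets, an intensity trend, an ordinary t-test and a threshold of 0.05. Each liver was also left out in turn. Trpm6-deficient 1 and control 1 were left out together, a choice made after seeing the data.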

Additional observations from a re-analysis of the deposited data

Results flagged for a closer look

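In 5 of 30 genes, the gap of 1 control liver made up most of the range of the 4 control livers. This was judged by Dixon's ratio of the gap to the whole range, against its 95% critical value. The ratio takes no account of how wide that range is. The control livers spanned only 11.46 to 11.62 in Hsd17b7 and 12.41 to 12.55 in Fdft1. Nominally about 1 in 20 groups passes this value by chance, and the share of all probe sets that pass it was not computed. Sqle had a ratio of 0.956, with control 4 low at 11.04. Dhcr7 had 0.935, with control 3 low at 10.82. Hsd17b7 had 0.875, with control 4 low at 11.46, and Fdft1 had 0.857, with control 1 high at 12.55. Scarb1 had 0.862, with control 4 high at 11.83. Groups of 3 were not examined in this way, so the gap of Trpm6-deficient 1 has no such ratio.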

How the results depend on the processing

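No gene of the list reached an adjusted p of 0.1 under any alternative run, and Ebp and Abcg8 had an unadjusted p up to 0.05 in every fit. Over the single genes, 449 values kept their direction and side of the threshold and 31 turned sign. The count of genes at an unadjusted limma p up to 0.05 was 2 to 12 with 1 liver left out, against 5.53% to 7.91% of all probe sets. It was 16 without both Trpm6-deficient 1 and control 1 (chosen after seeing the data), against 7.54%. An ordinary t-test, without moderation over probe sets, gave 3 genes at an unadjusted p up to 0.05, against 5.24% of all probe sets. That test left 0 genes of the list after Benjamini-Hochberg adjustment, and 8 of all probe sets. With 1 liver left out, the median log2 change ran between 0.0625 and 0.271 for synthesis, 0.1125 and 0.2125 for export and storage, and -0.043 and 0.047 for control and movement. Single log2 changes ran between -0.215 and 0.20 for Mvd, -0.1725 and 0.1675 for Idi1, -0.06 and 0.28 for Fdft1, -0.1225 and 0.2075 for Sqle, -0.23 and 0.165 for Nsdhl, -0.125 and 0.235 for Hsd17b7, -0.123 and 0.247 for Insig2, -0.097 and 0.083 for Abcg1, -0.07 and 0.057 for Stard4, and -0.1375 and 0.0225 for Npc1. Without both Trpm6-deficient 1 and control 1 Idi1 had 0.255 and Nsdhl 0.18. With age as a covariate Idi1 had 0.039. With arrays centred on their medians Mvd had -0.0075 and Stard4 -0.005, and with a second quantile normalization Hsd17b7 had -0.00089. Of all probe sets, 46 passed the adjusted threshold, against 8 with age as a covariate, 70 with dim probe sets removed, and 7 to 69 with 1 liver left out, and 9 without both livers. The cause was not tested.

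Whether the replicate numbers pair the livers is not given by the labels. Deviations from the group means correlated at 0.335, 0.26 and 0.0878 between livers of the same number, for numbers 1, 2 and 3. Trpm6-deficient 1 and 2 correlated best with the control of their own number, and Trpm6-deficient 3 with control 4 (0.226). These values do not settle the pairing. With the replicate number as a block, 3 of the 30 genes had an unadjusted limma p up to 0.05 (Ebp, Abcg5 and Abcg8). In that fit 9.27% of all probe sets reached that p, and 1 of all probe sets passed the adjusted threshold. The control and movement median was -0.043, and the log2 changes of Mvd, Sqle, Hsd17b7 and Stard4 were -0.107, -0.087, -0.023 and -0.07.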
